A study of Mus musculus with 4 samples.

Results

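Retinal ganglion cells were taken as 1 class from a sort of mouse retina and described across all measured genes. A barcode, which stands for 1 droplet and normally 1 cell, was chosen by its raw counts: it was taken as a ganglion cell when it held at least 1 unique molecular identifier (UMI, 1 captured transcript) of Slc17a6, at least 3 of Slc17a6 and Rbpms together, at most 1 of Lhx1, and under 10% of its UMIs from mitochondrial genes. This gate took 948 of 3237 barcodes, 29.3% of all (95% exact Clopper-Pearson interval 27.7% to 30.9%) and 35.1% of the 2701 barcodes under the mitochondrial maximum (33.3% to 36.9%). The reference is the 1753 other barcodes under that maximum. Within these, 415 barcodes with at least 2 Lhx1 UMIs and no Slc17a6 were set apart as horizontal cells, interneurons that contact photoreceptors.

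All cells came from 4 retinas of C57BL/6 mice aged 3 months that carried the Brn3b::GFP reporter, in which GFP stands for activity of Pou4f2, the gene that encodes Brn3b. GFP-positive cells were sorted and sequenced from the 3′ ends of their transcripts by a 10x Chromium V2 protocol. The retinas form 1 group with no second condition, no barcode is tied to a retina, and all barcodes carry 1 suffix, with none occurring more than once. The 4 retinas were therefore 1 pooled sample without replicates: levels are given as CPM, with every class brought to the same sum of UMIs, intervals are 95% and cover counting error only, and no test of a difference between classes was possible. A reporter of 1 gene limits the cells to those that were GFP-positive in the sort, so types of ganglion cell without reporter activity may be missing.

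Retinal ganglion cells are the output neurons of the retina. They receive glutamate from bipolar cells and inhibition from amacrine cells in the inner retina, turn these inputs into action potentials, and send them along axons that form the optic nerve. They release glutamate in the brain, which they load into vesicles with the transporter encoded by Slc17a6, VGLUT2. Their identity in development depends on POU4F (Brn3) and Isl1 transcription factors, and Rbpms, an RNA-binding protein, is used to label them in tissue sections.

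The name of the class held against markers that the gate did not use. The gate itself fixed Slc17a6, Rbpms and Lhx1, so their levels are a description: 356 CPM of Slc17a6 in ganglion cells against 17.7 CPM in other barcodes, 317 against 31.0 CPM of Rbpms, and 0.808 against 154 CPM of Lhx1, a homeobox gene of horizontal cells. Sncg, which encodes gamma-synuclein, reached 4075 CPM in ganglion cells, against 490 CPM in other barcodes, a ratio of 8.32 (8.10 to 8.54). Nefl, the light neurofilament chain of large axons, had 1990 CPM in ganglion cells and 303 CPM in other barcodes (6.58-fold, 6.36 to 6.80). Pou4f1, which encodes Brn3a, had 468 CPM in ganglion cells and 49.2 CPM in other barcodes (9.51-fold, 8.76 to 10.3). All 3 independent markers were thus several-fold higher in the gated cells than in the remainder of the sort.

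Their order across classes was the same at the top, with ganglion cells first. To see it, barcodes outside the gate were divided by 1 or a few markers each into 93 amacrine, 311 ON bipolar, 205 Müller glia, 141 microglia and 80 cone barcodes, beside the 415 horizontal cells. Sncg had 4075 CPM in ganglion cells, 361 CPM in horizontal cells, and between 130 and 159 CPM in the other 5 classes. Nefl had 1990 CPM in ganglion cells, 365 CPM in horizontal cells and 44.9 to 106 CPM in the other 5. The second highest class for both was horizontal cells, and the intervals of the 5 lowest classes are wide because their UMIs are few (Sncg in amacrine barcodes, 103 to 166 CPM). Pou4f1 had 468 CPM in ganglion cells, against 7.27 CPM in horizontal cells and 11.4 to 20.3 CPM in the other 5.

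**Figure D1:**
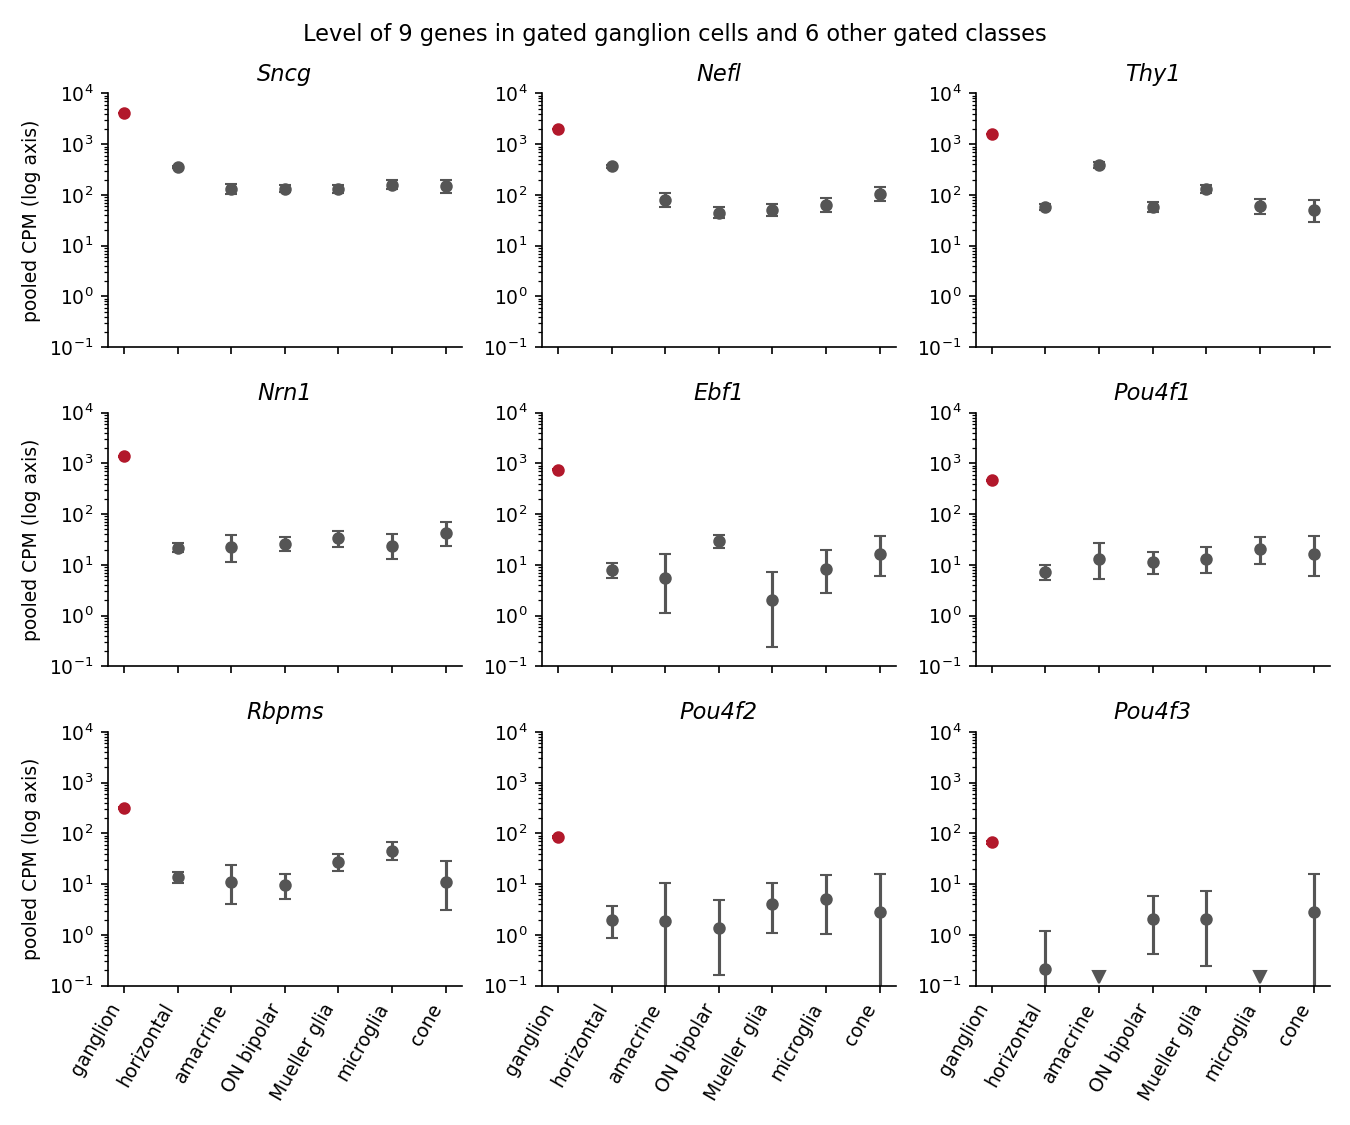
Pooled CPM (log axis) of 9 genes in gated ganglion cells (red) and the 6 other gated classes (grey), with 95% Poisson intervals for counting error and a triangle where a class had 0 UMIs. In all 9 panels ganglion cells stand highest, as for Sncg with 4075 CPM against 361 CPM in horizontal cells, and Rbpms was used by the gate.

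The 3 POU4F genes, transcription factors of sensory projection neurons, differed in how many ganglion cells held them. With each cell thinned to 3000 UMIs, a depth every barcode reached, Pou4f1 had a UMI in 64.3% of ganglion cells, against 2.17% of horizontal cells and 6.38% of microglia. Pou4f2, the gene of the reporter, had a UMI in 21.4% of ganglion cells, 0.482% of horizontal cells and 0.709% of microglia. Pou4f3 had a UMI in 14.9% of ganglion cells, 0.241% of horizontal cells and 0 of 141 microglia, where a true share of 2.13% could still be missed. The low shares in horizontal cells and microglia, which normally lack these genes, are the level that free RNA could reach, and all 3 genes stood above it in ganglion cells. With 10000 UMIs per cell, which 846 ganglion cells and 298 horizontal cells reached, the shares were 86.1% and 7.05% for Pou4f1, 46.7% and 2.01% for Pou4f2, and 33.0% and 0% for Pou4f3, where 0 of 298 horizontal cells sets a limit of 1.01%. Shares of cells with Pou4f2 and Pou4f3 thus depended strongly on depth, and a cell without a UMI cannot be called negative. EGFP has a row in the table, with 0 UMIs in all 3237 barcodes, so reporter transcript could not be set beside Pou4f2.

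Sncg and Nefl reached nearly every ganglion cell. At 3000 UMIs Sncg was seen in 99.9% of ganglion cells, 69.4% of horizontal cells and 31.9% of microglia. Nefl was seen in 98.9% of ganglion cells, 64.6% of horizontal cells and 13.5% of microglia. Shares alone separate the classes less well than amounts, since many horizontal cells also held 1 or a few of these UMIs. Of the 948 ganglion cells, 608 (64.1%) held Pou4f1, Nefl and Sncg together, and 9 (0.949%) held only 1 of the 3. No ganglion cell lacked all of them. Among other barcodes 3.42% held all 3, and among horizontal cells 0.482%.

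The edge of the gate was less sharp than its centre. The 31 ganglion cells that passed with exactly 3 UMIs of Slc17a6 and Rbpms had 4010 CPM of Sncg, 1771 CPM of Nefl and 672 CPM of Pou4f1, beside 4075, 1990 and 468 CPM in the whole class. Just outside, 117 barcodes with Slc17a6 but only 1 or 2 UMIs of the pair had 1509 CPM of Sncg, 644 CPM of Nefl and 175 CPM of Pou4f1. These levels lie between ganglion cells and the other classes. A further 27 barcodes failed because they had no Slc17a6 UMI although they held 3 or more of Rbpms, and they had 4033 CPM of Sncg, 1234 CPM of Nefl and 605 CPM of Pou4f1. The gate therefore misses some barcodes rich in ganglion cell transcripts, and these count among the other barcodes. The 1377 other barcodes with neither Slc17a6 nor Rbpms had 257 CPM of Sncg and 14.3 CPM of Pou4f1, while the 376 with at least 1 of them had 1138 and 146 CPM. Levels in other barcodes therefore include ganglion cell transcripts.

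Ganglion cells were the deepest class. They held a median of 15860 UMIs (3397 to 53709) and 4518.5 detected genes, against 5444 UMIs and 2331 genes in other barcodes and 11209 UMIs and 3605 genes in horizontal cells. Mitochondrial genes took a median of 3.97% of UMIs in ganglion cells, 6.74% in other barcodes and 6.86% in horizontal cells. Malat1, a long noncoding RNA kept in the nucleus, had 22323 CPM in ganglion cells, against 58186 CPM in other barcodes and 84195 CPM in horizontal cells. With CPM taken over genes other than Malat1 and mitochondrial genes, the median log2 ratio of all ranked genes was -0.10 against other barcodes and -0.02 against horizontal cells, where the scaling over all genes gave -0.03 and 0.10. The part of depth in the gate, which needs UMIs of its genes, was not tested. Scrublet, a doublet caller, marked 29 of the 948 ganglion cells (3.06%) and 58 of the 2701 barcodes (2.15%).

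Transcripts seen in most ganglion cells and lower in the other gated classes were sought next. At 3000 UMIs, 202 genes had a UMI in at least 80% of ganglion cells, and 21 of these were also at least 2-fold above the highest of the 6 other gated classes. The widest margin was that of Nrn1, which encodes neuritin, a small membrane-anchored protein of neurite growth: it had 1382 CPM in ganglion cells against 41.8 CPM in cones, its next class (33.0-fold). Ebf1, a transcription factor of the EBF family, had 753 CPM in ganglion cells and 29.5 CPM in ON bipolar barcodes (25.5-fold). Sncg (11.3-fold over horizontal cells) and Calb2, the calcium-binding protein calretinin (5495 CPM in ganglion cells and 514 CPM in amacrine barcodes, 10.7-fold), followed. Margins leave out the 473 other barcodes that fell in none of the 6 classes. Over all other barcodes Calb2 had 592 CPM, above its level in amacrine barcodes. Nefl (5.46-fold over horizontal cells), Tppp3, a tubulin-binding protein (4.69-fold over Müller glia), and Thy1, a surface glycoprotein long used to label ganglion cells (4.18-fold over amacrine barcodes), stood next.

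The other 8 of the 15 widest margins belonged to genes with broad neuronal or general cell functions. Sult4a1, a neuronal sulfotransferase relative, stood 3.15-fold above the highest other class, Ywhah, a 14-3-3 adaptor, 3.05-fold, and Cend1, a protein of neuronal cell cycle exit, 2.82-fold. Emc10, a part of a membrane protein insertion complex, Olfm1, a secreted neuronal glycoprotein, and Uchl1, an abundant neuronal ubiquitin hydrolase, had margins of 2.78-fold, 2.59-fold and 2.21-fold. Rab6a and Rab7, which direct membrane traffic of the Golgi and late endosomes, had margins of 2.2-fold and 2.19-fold. The 15 genes with the widest margins together took 2.52% of all UMIs in ganglion cells, against 0.405% in other barcodes and 0.312% in horizontal cells.

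In mm10, the mouse build named for these data, Sncg lies at chr14:34370274-34374789 on the minus strand and Nefl at chr14:68083863-68089095 on the plus strand. Pou4f1, also on chromosome 14, lies at chr14:104461676-104467999 on the minus strand. Nrn1 lies at chr13:36725361-36735131 on the minus strand, Ebf1 at chr11:44617317-45008091 on the plus strand, and Thy1 at chr9:44043384-44048579 on the plus strand. Of the gate genes, Slc17a6 lies at chr7:51622006-51671119 on the plus strand and Rbpms at chr8:33782643-33929863 on the minus strand. All are whole protein-coding genes in GENCODE, and a UMI was counted for the gene as a whole.

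Per cell, the leading genes were not only detected but abundant throughout the class. Among the 846 ganglion cells thinned to 10000 UMIs, Sncg ran from 8 UMIs through a median of 39 to 103, against 0, 3 and 15 in the 298 horizontal cells. Thy1 ran from 2 through 15 to 39 UMIs in ganglion cells and from 0 through 0 to 4 in horizontal cells. Nefl ran from 2 through 18 to 52 UMIs in ganglion cells, against 0, 3 and 12 in horizontal cells. The ranges of all 3 genes overlap between the classes at their edges, but the level that all but the lowest 10% of ganglion cells reached for Sncg (25.5 UMIs) lay above the highest horizontal cell. Nrn1 ran from 0 through 14 to 45 UMIs and Ebf1 from 0 through 7 to 29 in ganglion cells, against 0, 0 and 3 for Nrn1 and 0, 0 and 7 for Ebf1 in horizontal cells.

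**Figure D2:**
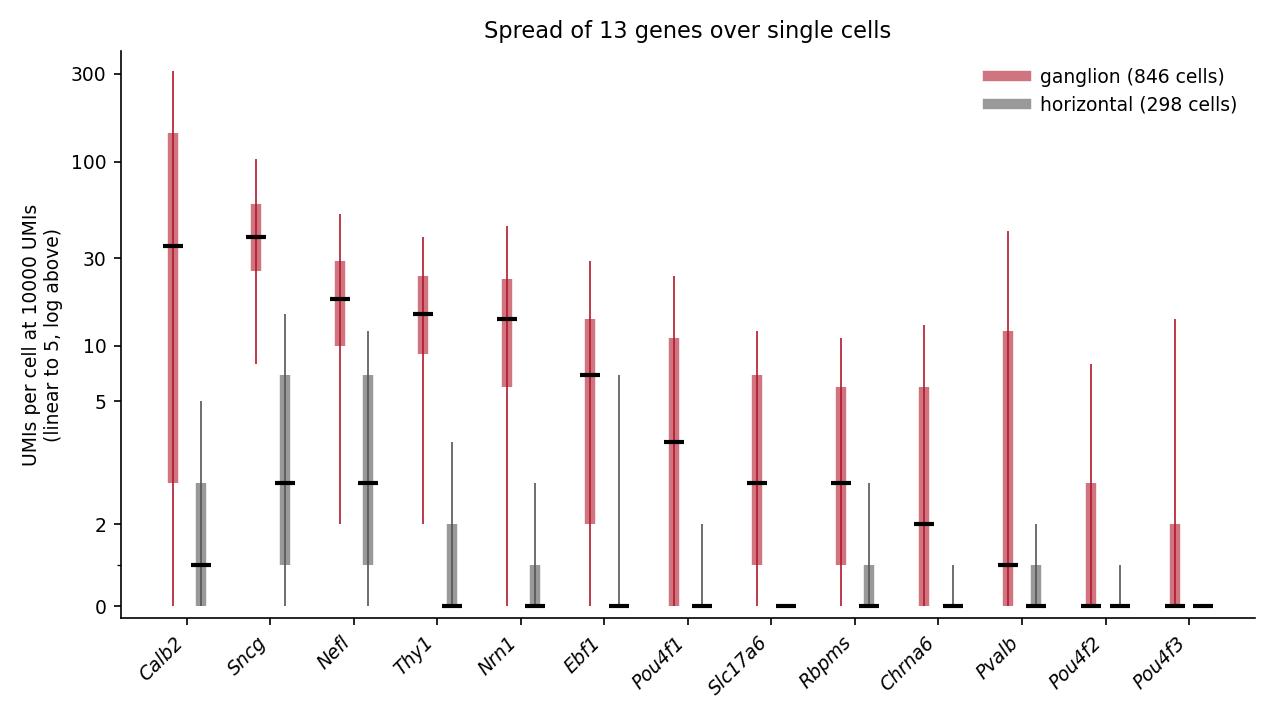
UMIs per cell after thinning to 10000 UMIs, in 846 ganglion cells and 298 horizontal cells (cells below that depth left out). The black mark is the median, the thick bar runs over the middle 80% of cells and the thin line from the lowest to the highest cell, on an axis linear to 5 and logarithmic above. Sncg has a median of 39 UMIs in ganglion cells and 3 in horizontal cells.

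Across the 11487 genes with at least 100 UMIs over ganglion cells and other barcodes, 1033 (8.99%) were at least 2-fold higher in ganglion cells and 1152 (10.0%) at least 2-fold lower, with 5 CPM added to both sides, and the median log2 ratio was -0.03. With a mitochondrial maximum of 5%, which left 741 ganglion cells, 581 genes were 2-fold higher. Slc17a6 aside, the highest ratios were led by Pvalb, which encodes the calcium buffer parvalbumin: 431 CPM in ganglion cells and 19.6 CPM in other barcodes (22.0-fold, 19.4 to 25.1). Chrna6, a nicotinic receptor subunit, had 260 CPM in ganglion cells and 16.6 CPM in other barcodes (15.6-fold, 13.6 to 18.0). Nrn1 stood at 13.6-fold (12.8 to 14.4) and Ebf1 at 11.7-fold (10.9 to 12.6). The other genes among the 15 highest were Ctxn3, a cortexin membrane protein (13.5-fold), Nell2, a secreted neuronal glycoprotein (13.5-fold), Elavl2 (13.2-fold) and Rbfox1 (12.0-fold), which bind RNA, Tmem163, a zinc transporter (12.9-fold), Srgap1, which acts in Slit-Robo signalling (12.4-fold), Rgs4, a brake on G-protein signalling (11-fold), Fxyd7, a regulator of the sodium pump (9.95-fold), and Thy1 (9.60-fold). Spp1, osteopontin, had 70.0 CPM in ganglion cells against 2.93 CPM in other barcodes (23.9-fold), but rested on few cells: 3.06% held a UMI at 3000 UMIs, and 1 cell held 10.7% of the UMIs of ganglion cells.

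**Figure D3:**
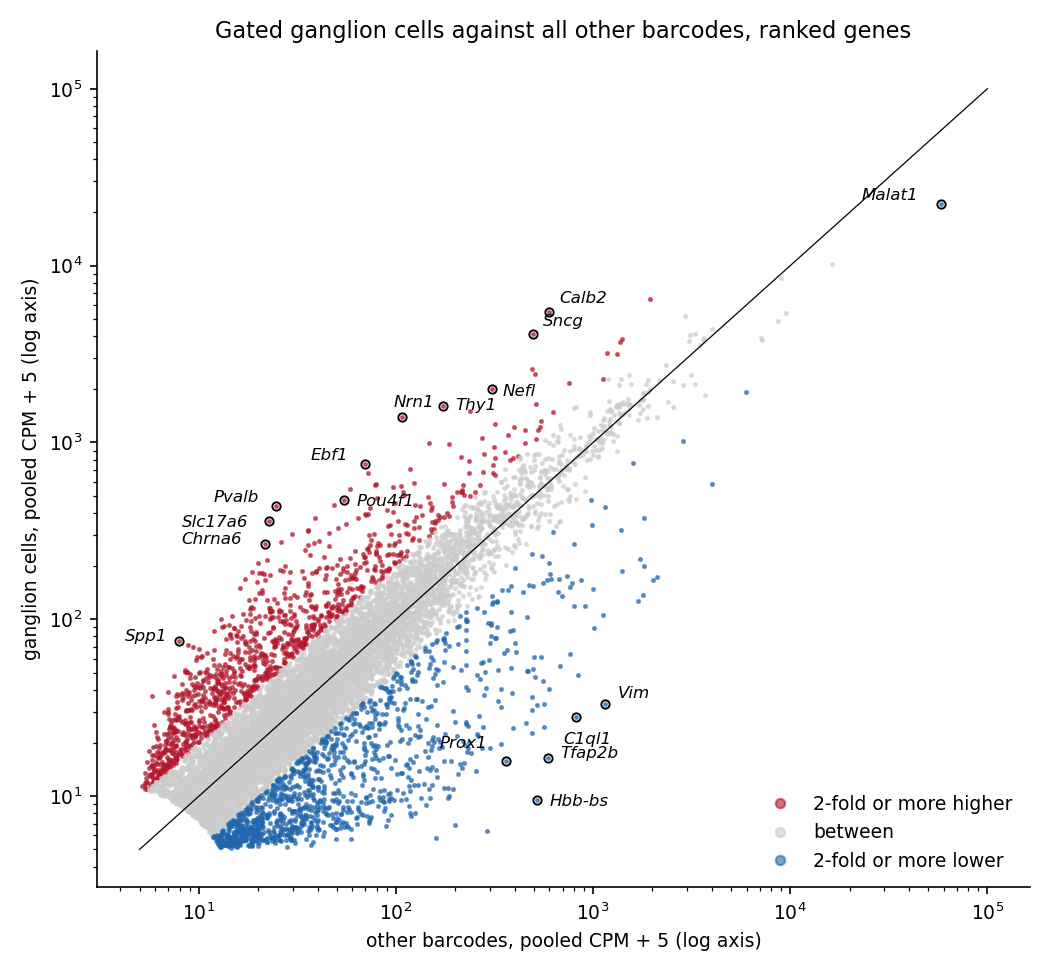
Pooled CPM plus 5 in ganglion cells (vertical, log axis) and in other barcodes (horizontal, log axis) for the ranked genes. Each point is 1 gene, red where ganglion cells are 2-fold or more higher and blue where they are 2-fold or more lower. Nrn1 (1382 against 102 CPM) and Thy1 (1606 against 167 CPM) combine a high level with a wide ratio.

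The lowest ratios were those of genes of other cells. Haemoglobin genes led them: Hbb-bs had 4.54 CPM in ganglion cells and 513 CPM in other barcodes, and Hba-a1 and Hba-a2, which are nearly identical and may share reads, had 1.37 and 1.87 CPM in ganglion cells, against 284 and 194 CPM in other barcodes. For each of the 3 genes 1 barcode held most of the UMIs of other barcodes (70.7%, 62.5% and 64.1% of Hbb-bs, Hba-a1 and Hba-a2), and without barcodes called doublets their log2 ratios were 0.15, 0.00935 and 0.27. The next genes were highest in horizontal cells or in both horizontal and amacrine barcodes. Tfap2b, an AP-2 transcription factor, had 11.4 CPM in ganglion cells and 582 CPM in other barcodes (50.9-fold lower, 43.9 to 59.2). Vim, the intermediate filament vimentin, had 28.0 CPM in ganglion cells and 1147 CPM in other barcodes (40.9-fold lower, 37.2 to 45). C1ql1, a secreted synaptic organiser (35.2-fold lower), Prox1, a homeobox gene (32.8-fold lower), and Ndrg1 (28.3-fold lower) followed. Lhx1os, a noncoding gene beside Lhx1 (27.2-fold lower), cannot be separated from Lhx1 reads where strand was not used in counting, and Lhx1 itself was used by the gate.

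Against horizontal cells alone, more genes were higher in ganglion cells than lower. Of 10365 ranked genes, 1575 (15.2%) were at least 2-fold higher in ganglion cells and 656 (6.33%) at least 2-fold lower, with a median log2 ratio of 0.10. Ebf1 had 753 CPM in ganglion cells and 7.92 CPM in horizontal cells (95.1-fold, 69.0 to 135), and Pou4f1 468 and 7.27 CPM (64.3-fold, 46.0 to 92.9). Nrn1 was 63.3-fold higher (52.1 to 77.7). Caln1, a neuronal calcium-binding protein, had 179 CPM in ganglion cells and 1.28 CPM in horizontal cells (140-fold, 64.0 to 381), and Nrgn, the calmodulin-binding neurogranin, 226 and 3.42 CPM (65.9-fold). Zfhx3, a large zinc finger homeobox factor (66.9-fold), Rbfox1 (66.2-fold), Tmem163 (60.2-fold), Chrna6 (52.8-fold), Calb2 (42.9-fold), Mt3, a brain metallothionein (42.8-fold), Rbpms2 (39.4-fold) and Fxyd7 (37.1-fold) were also among the 15 highest, together with 2900055J20Rik (311 and 2.78 CPM, 112-fold).

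Some of these genes stood as high, or nearly so, in amacrine or glial barcodes. Caln1 had 179 CPM in ganglion cells and 135 CPM in amacrine barcodes, and Zfhx3 had 229 CPM in ganglion cells and 266 CPM in microglia. Mt3 had 559 CPM in ganglion cells and 369 CPM in Müller glia. On the low side, Tfap2b was 81.6-fold lower in ganglion cells than in horizontal cells (70.4 to 95.0), Vim 74.5-fold lower, C1ql1 59.6-fold lower and Ndrg1 53.3-fold lower. Arhgap15, a Rac GTPase-activating protein (66.5-fold lower), F2r, the thrombin receptor (60.8-fold lower), Pcsk6, a proprotein convertase (52.4-fold lower), and Prox1 (49.4-fold lower) completed the lowest 10 with Lhx1 and Lhx1os. The 2 comparisons share the ganglion cells and the horizontal cells: of the 10365 genes ranked in both, 979 were at least 2-fold higher and 439 at least 2-fold lower in ganglion cells in both, and 24 were at least 2-fold higher in 1 and at least 2-fold lower in the other.

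Transcription factors linked to ganglion cell fate and subtypes were mostly higher. This list and the other functional lists below were chosen with earlier results of these data known. Their shares and medians are therefore a description and no test. Of 38 ranked factors, 26 were at least 2-fold higher in ganglion cells than in other barcodes and 4 at least 2-fold lower, against 8.99% and 10.0% of all genes, with a median log2 ratio of 1.65 against -0.03. Pou4f3 had 66.2 CPM in ganglion cells and 3.80 CPM in other barcodes (17.4-fold, 13 to 23.8), Isl2, a LIM-homeodomain factor, 64.6 and 4.36 CPM (14.8-fold, 11.3 to 19.8), and Pou4f2 85.0 and 8.08 CPM (10.5-fold, 8.60 to 13). Onecut2, a horizontal cell factor, was lower, at 33.3 CPM in ganglion cells and 382 CPM in other barcodes (11.5-fold lower), as was St18 (13.6-fold lower), which is highest in ON bipolar barcodes. Against horizontal cells 32 of 36 factors were higher and 4 lower, beside 15.2% and 6.33% of all genes.

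The cytoskeleton of the axon was higher as a group, with no member 2-fold lower. Of 29 genes of axonal filaments, tubulins and growth cones, 18 were at least 2-fold higher in ganglion cells than in other barcodes and 0 lower (median log2 ratio 1.52), where all genes had 8.99% higher and 10.0% lower. Against horizontal cells 17 were higher (median 1.26), where all genes had 15.2%. Nefm, the medium neurofilament chain, had 577 CPM in ganglion cells and 74.1 CPM in other barcodes (7.79-fold, 7.28 to 8.34). Tubb3, the neuronal tubulin of ganglion cell staining, had 706 CPM in ganglion cells and 113 CPM in other barcodes (6.26-fold). Prph, the filament protein peripherin, had 55.8 and 5.23 CPM (10.7-fold). In summed level the 29 genes took 21008 CPM in ganglion cells, against 7652 CPM in other barcodes and 8550 CPM in horizontal cells. The highest other gated class was amacrine barcodes, with 9887 CPM.

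Genes for making action potentials followed the same direction. Of 10 listed sodium channel genes, 9 were matched and 8 were ranked. All 8 ranked genes were at least 2-fold higher in ganglion cells than in other barcodes (median log2 ratio 2.07). All 8 were also higher than in horizontal cells (median 2.25). The UMI minimum is summed over the classes compared, so a gene can be ranked through ganglion cells alone, which favours higher genes. Over all genes 8.99% and 15.2% were as far above these references. Scn1a, which encodes the pore of Nav1.1, had 157 CPM in ganglion cells and 14.7 CPM in other barcodes (10.7-fold, 9.17 to 12.4). The pore genes Scn2a1 (190 and 35.8 CPM, 5.30-fold) and Scn3a (67.5 and 12.4 CPM, 5.43-fold) and the accessory gene Scn3b (43.2 and 6.42 CPM, 6.73-fold) were also higher. Scn3b also reached 37.0 CPM in amacrine barcodes. Among 19 genes of the node of Ranvier and axon initial segment, where spikes begin, several of them also counted as channels, 12 were higher and 0 lower than in other barcodes (median 1.19; 8.99% and 10.0% over all genes), and Kcnq3, a subunit of the M-type potassium channel, had 44.3 and 7.21 CPM (6.15-fold).

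Potassium channel genes were mostly higher. Of 28 ranked genes, 17 were at least 2-fold higher in ganglion cells than in other barcodes and 3 at least 2-fold lower (median log2 ratio 1.59). The share lower was near the 10.0% of all genes, while 8.99% of all genes were higher. Kcnd2, which encodes an A-type channel, had 56.8 CPM in ganglion cells and 5.39 CPM in other barcodes (10.6-fold, 8.24 to 13.7), and Kcnc4 of the Kv3 family had 84.6 and 9.98 CPM (8.48-fold). Kcna1, Kcnip1 and Kcnc2 had 73.7, 76.2 and 69.8 CPM in ganglion cells, 6.51-fold, 7.29-fold and 6.57-fold above other barcodes, while amacrine barcodes held 137, 124 and 92.5 CPM, for Kcnc2 within counting error of the ganglion cell level. The 3 lower genes were Kcnma1, the BK channel (34.0 CPM in ganglion cells and 375 CPM in ON bipolar barcodes), Kcnip2 and Kcnab1. Calcium channel genes had no common direction, with 6 of 18 higher and 4 lower (median 0.42; 8.99% and 10.0% over all genes). Cacnb3 (182 and 21.7 CPM, 8.40-fold) and Cacnb4 (158 and 23.6 CPM, 6.68-fold), which encode beta subunits, were higher in ganglion cells, whereas Cacna2d3 had 23.3 CPM in ganglion cells and 257 CPM in other barcodes (11.1-fold lower), with 1435 CPM in ON bipolar barcodes.

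Receptors for the inputs of ganglion cells came next. Of 13 ionotropic glutamate receptor genes, which receive the bipolar signal, 4 were at least 2-fold higher in ganglion cells than in other barcodes and 1 lower, with a median log2 ratio of 0.23. Over all genes 8.99% were higher and 10.0% lower, so the share lower was near that of all genes. The NMDA receptor genes Grin2a (61.9 and 6.97 CPM, 8.89-fold), Grin3a (22.2 and 2.06 CPM, 10.8-fold) and Grin2b (57.2 and 10.6 CPM, 5.39-fold) were higher, while the kainate receptor gene Grik1 had 3.67 CPM in ganglion cells and 29.1 CPM in other barcodes (7.94-fold lower). Grin2b had 66.6 CPM in amacrine barcodes, within counting error of its level in ganglion cells. Of 13 GABA-A and glycine receptor genes, which receive amacrine inhibition, 5 were higher and 0 lower (median 0.94; 8.99% and 10.0% over all genes), led by Gabrg3 (54.0 and 4.67 CPM, 11.6-fold) and Glra2 (28.0 and 4.44 CPM, 6.31-fold). Gabra2 had 107 CPM in ganglion cells, 45.1 CPM in other barcodes and 174 CPM in amacrine barcodes. In summed level the 15 listed glutamate receptor genes had 623 CPM in ganglion cells and 790 CPM in amacrine barcodes. The 18 listed GABA-A and glycine receptor genes had 772 CPM in ganglion cells and 837 CPM in ON bipolar barcodes.

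Nicotinic acetylcholine receptor genes, which respond to transmitter from starburst amacrine cells, formed the list with the highest median among ranked genes. Of 5 ranked members, 4 were at least 2-fold higher in ganglion cells than in other barcodes and 0 lower (median log2 ratio 2.67), beside 8.99% and 10.0% of all genes. With all 9 listed genes ranked at 1 or more UMIs the median was 0.04. Beside Chrna6, Chrnb3 had 177 CPM in ganglion cells and 16 CPM in other barcodes (11.1-fold, 9.60 to 12.8), and Chrna3 had 31.8 and 0.792 CPM (40.1-fold, 21.6 to 84.2). Chrnb2 had 49.5 and 18.1 CPM (2.74-fold). In summed level the 9 listed genes took 536 CPM in ganglion cells, against 69.4 CPM in other barcodes and 58.2 CPM in horizontal cells, and at most 72.5 CPM in any other gated class.

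Some genes of transmitter release were higher in ganglion cells and others lower. The 28 listed genes, Slc17a6 among them, summed to 20440 CPM in ganglion cells and 17492.5 CPM in amacrine barcodes. They summed to 9518 CPM in other barcodes and 9399 CPM in horizontal cells. Of 26 ranked genes, with the gate gene Slc17a6 left out, 14 were at least 2-fold higher in ganglion cells than in other barcodes and 4 lower (median log2 ratio 1.02), where all genes had 8.99% higher and 10.0% lower. Cplx1, a complexin of fast release, had 436 CPM in ganglion cells and 43.6 CPM in other barcodes (10.0-fold, 9.18 to 10.9), and Sv2c, a vesicle protein, 124 and 12.9 CPM (9.57-fold). Cplx3, a paralogue of Cplx1 and the complexin of ribbon and amacrine synapses, had 39.9 CPM in ganglion cells and 551 CPM in other barcodes (13.8-fold lower). Slc32a1, the vesicular transporter for GABA and glycine, had 2.74 and 114 CPM (41.7-fold lower, 30.9 to 57.6), and Slc17a7, the glutamate transporter VGLUT1 of photoreceptors and bipolar cells, 15.3 and 151 CPM (9.90-fold lower).

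RNA-binding proteins of neurons, the family of the gate gene Rbpms, were higher in 6 of 15 cases, with Rbpms itself left out, and lower in 2 (median log2 ratio 0.87). The shares over all genes were 8.99% and 10.0%. Rbpms2, the close relative of Rbpms, had 540 CPM in ganglion cells and 53.5 CPM in other barcodes (10.1-fold, 9.34 to 10.9). Rbfox1 and Elavl2 were given above, and Elavl4, another Hu protein, had 195 and 22.3 CPM (8.74-fold). Elavl4 was also seen in amacrine barcodes, at 124 CPM, and in horizontal cells at 2.78 CPM. The lower genes were Celf3 (40.1 and 115 CPM) and Khdrbs3 (38.2 and 101 CPM), both highest in ON bipolar barcodes.

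Among 27 guidance receptors and ligands, which steer and map axons in development, 12 were at least 2-fold higher in adult ganglion cells than in other barcodes and 4 lower (median log2 ratio 0.72), beside 8.99% and 10.0% of all genes. Nrn1 led them. Alcam, an adhesion molecule of axon bundles, had 58.8 CPM in ganglion cells and 8.55 CPM in other barcodes (6.88-fold, 5.63 to 8.47). In amacrine barcodes Alcam had 48.1 CPM (31.4 to 70.5), within counting error of its ganglion cell level. The ephrin ligands Efna3 (50.7 and 8.55 CPM, 5.93-fold) and Efna5 (54.6 and 9.35 CPM, 5.84-fold) and the semaphorin receptor Nrp1 (60.6 and 12.1 CPM, 5.0-fold) were also higher than in other barcodes. The lower genes included Nrn1l, a relative of Nrn1, with 10.6 CPM in ganglion cells and 117 CPM in other barcodes (11.1-fold lower), Plxna4 (6.08-fold lower) and Epha7 (4.76-fold lower). Nrn1 and Nrn1l thus stood at opposite ends, with Nrn1l at 685 CPM in ON bipolar barcodes.

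Genes of trophic support and injury had no common direction against other barcodes, with 8 of 26 higher and 6 lower (median log2 ratio 0.09), beside 8.99% and 10.0% of all genes. Bdnf, a neurotrophin, had 111 CPM in ganglion cells and 17.7 CPM in other barcodes (6.30-fold, 5.48 to 7.27), and Ntrk3, the receptor of neurotrophin-3, 59.6 and 9.42 CPM (6.33-fold). Igf1 (116 and 23.8 CPM, 4.86-fold) and Nmnat2, the axon survival enzyme (60.2 and 10.8 CPM, 5.59-fold), were also higher. Mapk10, which encodes the kinase JNK3, had 265 and 94.2 CPM (2.81-fold). On the low side Socs3, a brake on cytokine signalling, had 4.48 CPM in ganglion cells and 78.2 CPM in other barcodes (17.5-fold lower), with 757 CPM in microglia and 273 CPM in Müller glia. Klf4 (9.58-fold lower) and Atf3 (10.4-fold lower) were likewise highest in microglia, and against horizontal cells, without glia, 11 of 23 genes were higher and 2 lower (median 0.91), beside 15.2% and 6.33% of all genes.

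Pumps and enzymes of energy supply differed little as a group: 5 of 33 were at least 2-fold higher in ganglion cells than in other barcodes and 3 lower (median log2 ratio 0.24), shares near the 8.99% and 10.0% of all genes. The plasma membrane calcium pumps went different ways, with Atp2b2 at 162 and 49.98 CPM (3.24-fold) and Atp2b4 at 49.3 and 13.8 CPM (3.58-fold), but Atp2b1 at 189 and 396 CPM (2.09-fold lower). In amacrine barcodes Atp2b4 had 66.6 CPM (46.6 to 92.2), within counting error of its ganglion cell level. Atp1b2, a sodium pump subunit, had 112 CPM in ganglion cells and 252 CPM in other barcodes (2.26-fold lower). Eno2, the neuronal enolase, had 837 and 409 CPM (2.05-fold).

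Calcium-binding proteins were higher in 10 of 18 cases and lower in 3 (median log2 ratio 1.32), beside 8.99% and 10.0% of all genes. Pvalb and Calb2 led, and Hpca (266 and 33.5 CPM, 7.93-fold), Hpcal1 (274 and 35.9 CPM, 7.62-fold) and Vsnl1 (987 and 143 CPM, 6.92-fold), which are calcium sensors of the same family, were similar in size. Vsnl1 also stood at 623 CPM in amacrine barcodes. Calb1, calbindin, had 196 CPM in ganglion cells and 1811 CPM in other barcodes (9.22-fold lower), with 3497 CPM in horizontal cells. Cabp5 had 7.40 CPM in ganglion cells and 687 CPM in ON bipolar barcodes, and Rcvrn, recoverin, 46.9 CPM in ganglion cells and 3837 CPM in cones.

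Immediate-early genes, which respond within minutes to activity or to the stress of dissociation, were not higher in ganglion cells than in other barcodes: 0 of 15 ranked members were at least 2-fold higher and 8 were at least 2-fold lower (median log2 ratio -1.01, and -2.12 with a mitochondrial maximum of 5%), beside 8.99% and 10.0% of all genes. Ier2 had 82.2 CPM in ganglion cells and 388 CPM in other barcodes, but 2824 CPM in Müller glia and 1491 CPM in microglia. Btg2 had 68.4 CPM in ganglion cells and 397 CPM in other barcodes, with 2400 CPM in Müller glia and 2064 CPM in microglia. The list was highest in glial barcodes. The 16 listed genes summed to 1654 CPM in ganglion cells, against 724 CPM in horizontal cells, 19305 CPM in Müller glia and 22131 CPM in microglia, and against horizontal cells 8 of 12 ranked members were higher and 0 lower (median 1.36), beside 15.2% and 6.33% of all genes.

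**Figure D4:**
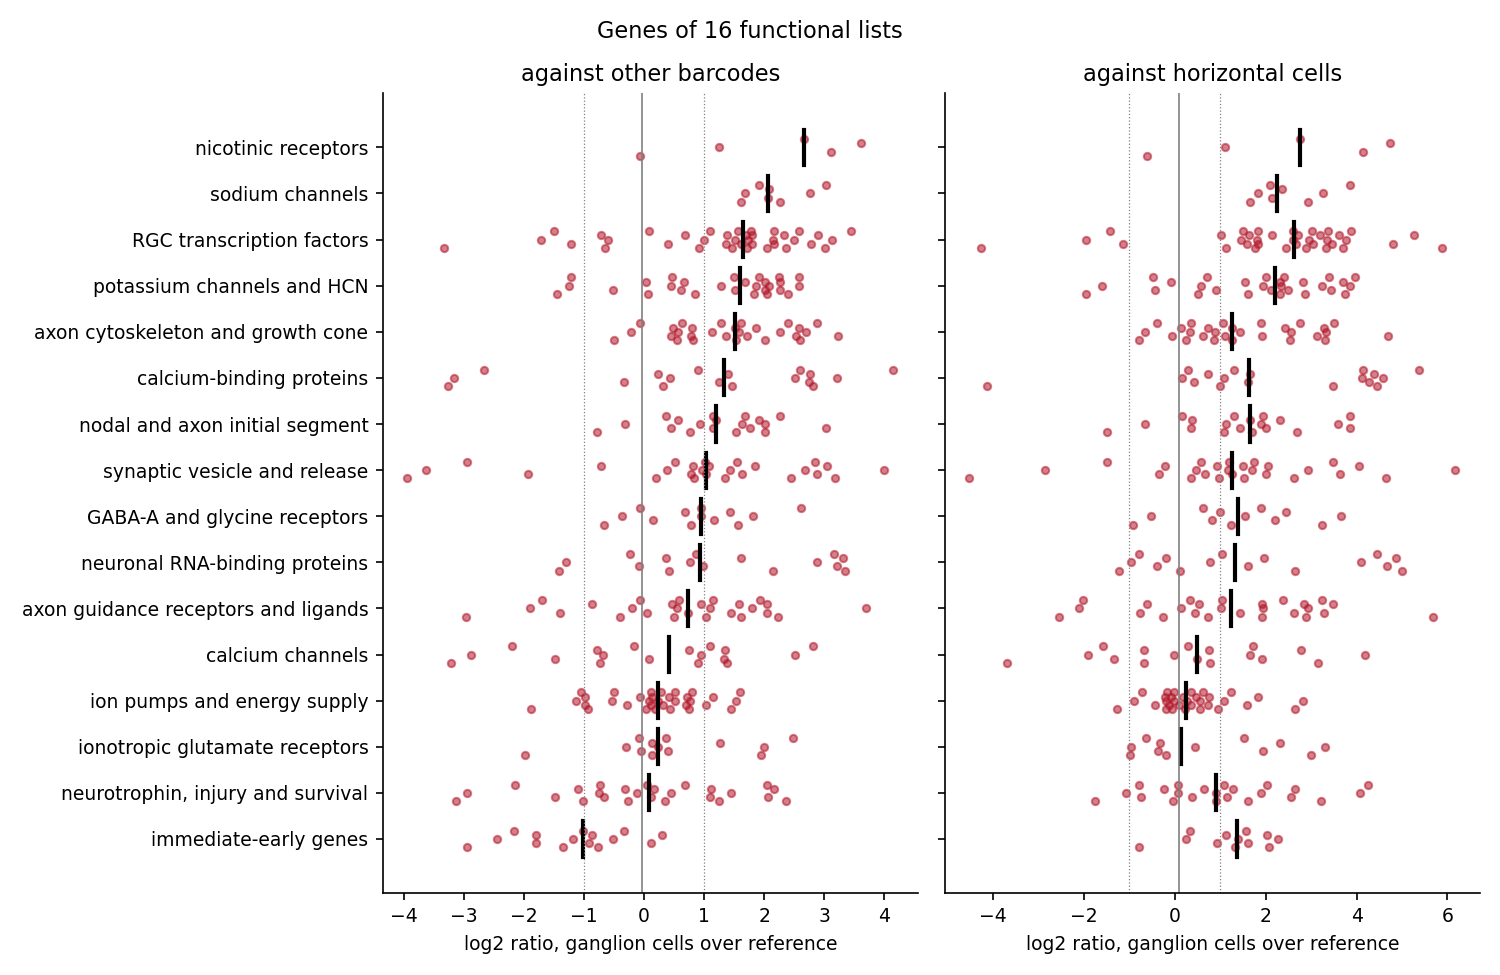
Each row is a gene list, with the log2 ratio of each ranked member (5 CPM added to both sides) in ganglion cells over other barcodes (left) or over horizontal cells (right) as a point, the list's median as a black bar, the median of all ranked genes as a grey line and 2-fold as dotted lines; the gate genes Slc17a6 and Rbpms are among the points of the synaptic vesicle and RNA-binding lists. Against other barcodes nicotinic receptors have the highest median (2.67, with 5 of 9 listed genes ranked) and immediate-early genes the lowest (-1.01). With all 9 nicotinic genes ranked at 1 or more UMIs their median was 0.04. The immediate-early list lies at 1.36 against horizontal cells. The lists were chosen with earlier results of these data known.

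Promoters of 2 genes are shown for the DNA in front of them. RefSeq windows of 250 bases before a gene's start were found for 16 of 26 genes, those with the 15 widest margins or the 15 highest ratios against other barcodes, the gate genes left out. The homeobox core TAATTA, searched on both strands, lay in 2 of these 16 (12.5%; Spp1 and Tmem163), against 5.65% of the 27025 genes with a window. The POU4F element ATAATTAAT, which contains TAATTA, lay in 0 of 16, against 0.307% of all genes, and the EBF palindrome (TCCC, any 2 bases, then GGGA) in 0 of 16, against 0.914%. A match of letters is no sign of binding, and nothing follows from its absence. The sequences below, from RefSeq on GRCm38 (mm10), are the Tmem163 window, with TAATTA in capitals 36 bases before the start, and the Sncg window, which holds none of the 3 elements. Each runs 5′ to 3′ on the strand of its gene. The start is that of RefSeq. For Sncg it lies inside the GENCODE gene located above, so the last bases of the Sncg window fall within that gene.
Tmem163, chr1:127678022-127678271, minus strand: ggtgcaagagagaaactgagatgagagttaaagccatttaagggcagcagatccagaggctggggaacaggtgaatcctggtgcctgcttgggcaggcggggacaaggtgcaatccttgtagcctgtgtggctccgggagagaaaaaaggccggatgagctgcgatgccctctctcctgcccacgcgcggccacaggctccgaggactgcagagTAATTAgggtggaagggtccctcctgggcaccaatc
Sncg, chr14:34374670-34374919, minus strand: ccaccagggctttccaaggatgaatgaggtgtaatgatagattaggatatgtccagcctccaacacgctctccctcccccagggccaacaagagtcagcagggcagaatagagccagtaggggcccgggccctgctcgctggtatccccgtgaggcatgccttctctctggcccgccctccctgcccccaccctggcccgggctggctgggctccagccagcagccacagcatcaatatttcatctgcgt

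Ganglion cells differed among themselves in some genes far more than in others. At 10000 UMIs per cell, 3302 genes had a mean of at least 0.5 UMIs over the 846 cells, and the median of their variance over mean was 1.09, where 1 is the value that counting alone gives. At least 2 was reached by 178 genes and at least 5 by 41. For the same relative spread between cells, this value is larger in genes with more UMIs. Beside Malat1 (101), the highest were Cartpt, a neuropeptide precursor (74.1), Calb2 (66.7) and Pcp4, a calmodulin-binding peptide (37.9). Cartpt had a median of 2 UMIs and a highest value of 246, and the 85 cells richest in it held 73.1% of its UMIs. Calb2 had a median of 35 UMIs and ran from 0 to 310.

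Genes of named ganglion cell types were among the uneven ones. Opn4, melanopsin, the pigment of intrinsically photosensitive ganglion cells, had a variance over mean of 12.6, with a UMI in 10.8% of cells and 98.8% of its UMIs in the 85 richest. Ctxn3 (14.6) was seen in 24.9% of cells, and Pvalb (12.1) in 54.6%. Actb (16) and Ubb (11.5), widely expressed genes, were also among the highest 10. The lowest values, 0.839 to 0.886, were those of genes such as Eif3m (translation initiation), Timm10 (mitochondrial import) and Lsm5 (RNA processing). Their means were low, from 0.579 UMIs for Utp11l to 1.81 for Eif3m. Whether values this far under 1 exceed sampling error was not tested, so these genes cannot be called more even than others of few UMIs.

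The genes that define the class as a whole lay between. Sncg had a variance over mean of 4.66, Nefl 3.15, Nrn1 3.23, Ebf1 3.38 and Thy1 2.37, against 3.60 for Pou4f1. The gate genes had lower values, at 1.16 for Rbpms and 1.37 for Slc17a6, but a gate on at least 1 and at least 3 UMIs removes their lowest cells. Means also differed, from 3.17 UMIs for Rbpms, 3.47 for Slc17a6 and 4.92 for Pou4f1 to 40.7 for Sncg. The values therefore do not rank these genes by relative spread. Class-wide detection thus did not mean equal amounts.

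**Figure D5:**
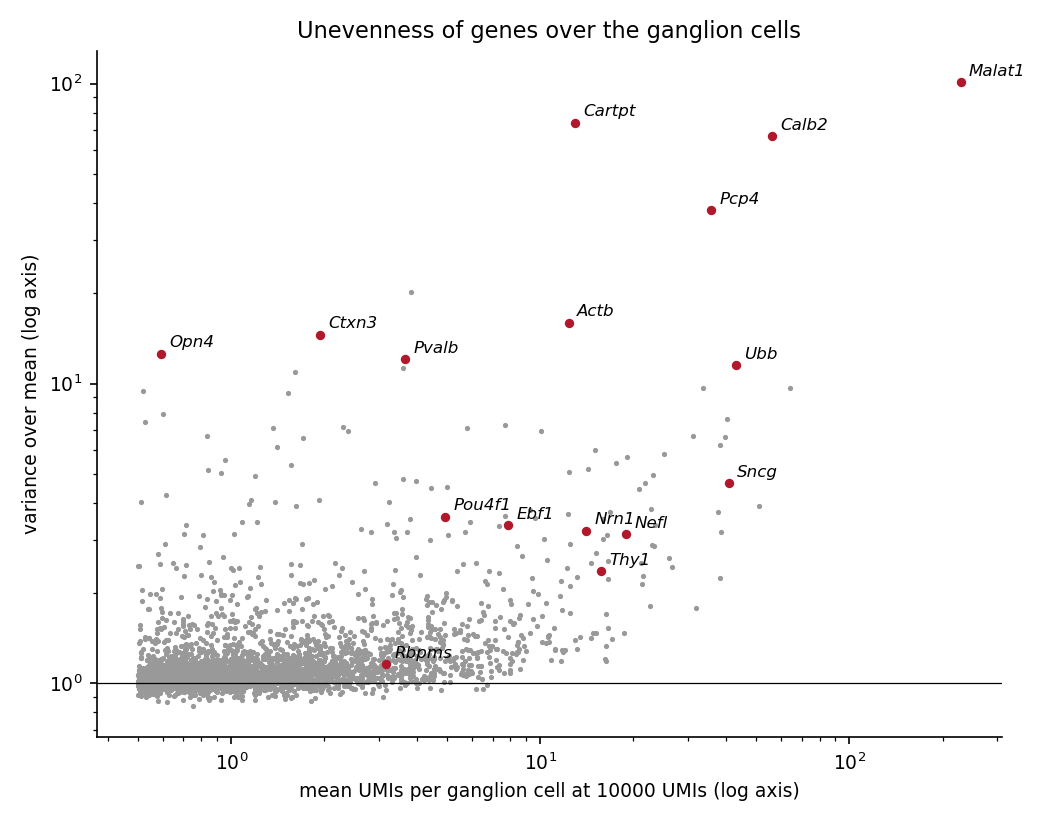
Variance over mean of UMIs per cell (log axis) against mean UMIs per cell (log axis) for the 3302 ranked genes in 846 ganglion cells thinned to 10000 UMIs. The line marks 1. Most genes lie near the median of 1.09, with Cartpt (74.1), Calb2 (66.7) and Opn4 (12.6) far above it.

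Transcripts of other cell types were present in ganglion cells at low levels. The 9 rod markers summed to 783 CPM in ganglion cells, close to the 848 CPM in horizontal cells and below the 4202 CPM in other barcodes, and all 9 had at least 1 UMI. The 7 Müller glia markers summed to 460 CPM in ganglion cells and 650 CPM in horizontal cells, against 40098 CPM in Müller glia. The 7 bipolar markers, among them Isl1, which ganglion cells also express, summed to 436 CPM in ganglion cells, against 286 CPM in horizontal cells. The 7 horizontal cell markers, among them the gate gene Lhx1, summed to 423 CPM in ganglion cells and 9997 CPM in horizontal cells. At 3000 UMIs, 59.3% of ganglion cells held a UMI of at least 1 of these 7. Amacrine markers summed to 37.3 CPM in ganglion cells and 3982 CPM in amacrine barcodes, microglial markers to 126 and 39717 CPM in their own class, and cone markers to 137 and 56199 CPM. The 5 oligodendrocyte markers summed to 10.7 CPM in ganglion cells, with 2 of the 5 at 0, and astrocyte, endothelial, pericyte and pigment epithelium markers to between 4.98 and 17.6 CPM.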

How the data were processed

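The labels describe 4 retinas, and the authors deposited 1 table of counts for all of them: whole-number UMIs, not normalized, for 27999 genes in each barcode. The submitters' processing notes name Cell Ranger, Seurat 2.2 and mm10. Settings, strand use and barcode calling: not given in the sources used here. How deep a barcode had to be bears on the shares given.

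Counts were summed per class and scaled to CPM over all genes. Exact Poisson, exact conditional (ratios) and Clopper-Pearson (shares) intervals are at 95%. PCR copies are collapsed by UMIs, and intervals cover counting error only. Printed folds are ratios of CPM, while ranks, the 2-fold limit and log2 ratios use 5 CPM added to both sides. A gene was ranked from 100 UMIs upward, summed over the classes compared. Cells were thinned without replacement (seed 7). Other classes needed Slc17a6 at 0 and at most 1 Lhx1 UMI: amacrine 2 or more Gad1, ON bipolar 2 or more Trpm1, Müller glia 5 or more Rlbp1, microglia 10 or more C1qa, C1qb and C1qc together, cones 10 or more Arr3. The 35 barcodes that passed more than 1 of these gates were left out of the 6 classes, and 473 other barcodes passed none. The mitochondrial maximum removed 536 barcodes, 2 of which passed the remainder of the gate.

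Genes were named by rule: the 5 gate and marker genes, Pou4f2 and Pou4f3, the 15 highest and 10 lowest ratios in each comparison (mitochondrial and ribosomal protein genes aside), the 15 widest class margins, up to 5 higher and 3 lower members of each of 16 functional lists, and the 10 most and 10 least variable genes; some genes that the rule takes are not reported here. The members and lists were chosen with earlier results of these data known. Of 427 listed genes, 2 were not matched in the table. Loci are from GENCODE vM21, matched for 150 of 151 named genes. The tools were scipy 1.17.1, numpy 2.4.6, scanpy 1.11.5 (Scrublet), pandas 2.3.3 and matplotlib 3.10.9 under Python 3.11.15, and the ratio and thinning steps were tested on simulated data. Alternatives changed the mitochondrial maximum, the gate, the added CPM, the UMI minimum, the scaling, the weighing of classes, thinning, and the barcodes kept.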

Additional observations from a re-analysis of the deposited data

How the results depend on the processing

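Of 3547 recomputed gene values, 2523 moved little, 1017 moved by more than their counting interval and 7 changed direction. A mitochondrial maximum of 5% left 581 genes at least 2-fold higher in ganglion cells than in other barcodes, against 1033, and Cartpt at a log2 ratio of -0.65, against 1.26; the cause was not tested. With the 6 gated classes weighed equally, an alternative chosen after seeing the data, Cartpt was at -0.33, Hba-a1 at 0.25 and Hba-a2 at 0.35, and the cause was not tested. Without Scrublet doublets Hba-a1 was at 0.00935, Hba-a2 at 0.27 and Hbb-bs at 0.15: in each, 1 barcode held most UMIs of other barcodes. Amacrine barcodes held 10979 CPM of Cartpt. Of its 7797 UMIs in other barcodes, 5936 lay in amacrine barcodes, and 1 barcode held 48.7% of the 7797. That barcode must be among the amacrine ones, so their level rests largely on it. Of 240 list medians 4 changed sign, all of the trophic and injury list. Without thinning, the shares of ganglion cells with a UMI were 98.7% for Rbpms, 100% for Slc17a6, 89.6% for Pou4f1, 59.1% for Pou4f2, 41.0% for Pou4f3 and 99.8% for Nefl, which keep each cell's own depth. No paired analysis was possible because barcodes are not tied to retinas, and for the same reason no retina could be left out. Depth limits Pou4f2, Pou4f3 and channel genes of few UMIs, and spread between animals is unknown.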
